A study of Mus musculus with 6 samples.

Results

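The genes described here make ribosomes. They are 41 mouse genes whose products work in the nucleolus on ribosomal RNA and pre-ribosomes, and they were taken by symbol, as a list set by function, from the 46983 genes with values. No threshold on the values entered the list, but it was drawn up with earlier results of these libraries known. All 41 were found, and all 41 were among the 13312 genes tested, those whose FPKM (a read count scaled to gene length and to library depth) averaged 0.5 or more over the libraries. By role, 7 act in transcription of ribosomal DNA by RNA polymerase I, 4 in box C/D and 4 in box H/ACA small nucleolar ribonucleoproteins (snoRNPs), 11 in the small subunit pathway and 13 in the large subunit pathway, and 2 are abundant proteins of the nucleolus itself. The genes lay on 18 chromosomes.

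Bulk RNA-seq compared 3 WT with 3 *Hif1a* KO libraries of mouse splenic B cells under IgA class switching conditions. In the KO mice, which were on a C57BL/6 background, a floxed part of *Hif1a* is cut out by a cre recombinase driven from *Mb1* (*Cd79a*), a gene of the B-cell receptor that is switched on early in the B lineage. The WT mice were littermates that were either *Hif1a* f/+ with cre or *Hif1a* f/f without it, and the labels do not say which applied to a library, so a WT library may carry cre. Cells of both groups were kept until day 3 with TGF-β, IL-5 and BAFF, each at 10 ng/ml, together with 5 μg/ml of LPS, and the methods describe sorted follicular B cells as the starting population for such cultures. The comparison asks how the loss of HIF-1α, a transcription factor of the response to low oxygen, alters the transcripts of these cells. No label says that libraries of a group came from separate animals or cultures, so the p-values measure only the spread between these libraries.

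Ribosomes are assembled in the nucleolus, where RNA polymerase I copies ribosomal DNA into a long precursor RNA. Small nucleolar RNAs guide its chemical modification, with box C/D snoRNPs adding methyl groups and box H/ACA snoRNPs converting uridine to pseudouridine. A large assembly around the U3 snoRNP folds and cuts the part of the precursor that becomes the small subunit, and a separate series of factors matures the large subunit. Activated B cells enlarge their nucleoli as they grow and divide, and Myc is a known activator of many genes of this pathway.

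The libraries did not separate by genotype alone, which bears on every value that follows. The libraries held 25.0 to 37.2 M reads. On the first principal component of all genes tested (54.7% of the variance), WT replicates 2 and 3 lay at 26.2 and 25.9, while WT replicate 1 lay at −15.7, among the KO libraries at −19.5 to −7.1. KO replicate 2 stood apart on the second component (16.7%), and it alone held the Y-linked *Ddx3y* above a trace (FPKM 43.3, against at most 0.00945 in the others), which sets it apart as a library from a male. The FPKM of *Hif1a* was 36.5, 49.8 and 45.8 in the WT and 46.5, 45.6 and 52.8 in the KO libraries, and as reads of all exons are counted this does not check the deletion. No value here checks the genotype label of WT replicate 1, and every KO minus WT difference takes that label as given. The B-cell marker *Ms4a1* (FPKM 327 to 445) was high in all 6 libraries, and the 8 B-cell markers summed to 3060 to 3935 in WT and 3069 to 4102 in KO. Among them, *Cd79a* varied more than *Ms4a1*, at 1203, 739 and 779 in WT and 498, 1074 and 611 in KO. The 7 T-cell markers summed to 3.81 to 4.81 FPKM, of which *Cd3e*, *Cd3d*, *Cd4* and *Cd8a* were below 0.5 in every library.

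Some members also carry parts of the pathway's RNA component within their own genes. Of the 41 genes, 8 (19.5%) held annotated small nucleolar RNA (snoRNA) genes on their own strand, against 215 of 13268 genes tested with an annotation (1.62%). They were *Nop56*, *Nop58*, *Dkc1*, *Wdr43*, *Tsr1*, *Ppan*, *Gnl3* and *Ncl*, with 23 snoRNA genes between them. The 5 snoRNAs shown here, 1 from each of 5 hosts, lie in introns except *Snord69*, which overlaps an annotated exon. They carry the motifs of box C/D snoRNPs, the particles to which the proteins of *Nop56*, *Nop58* and *Fbl* belong. Capitals mark the box C motif TGATGA within the first 20 bases and the box D motif CTGA within the last 15 bases, read 5′ to 3′ on the host's strand (GENCODE vM21, GRCm38).
Snord110 in Nop56, chr2:130275506-130275573, + strand: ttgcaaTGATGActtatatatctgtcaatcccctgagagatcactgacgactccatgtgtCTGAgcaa
Snord11 in Nop58, chr1:59704790-59704873, + strand: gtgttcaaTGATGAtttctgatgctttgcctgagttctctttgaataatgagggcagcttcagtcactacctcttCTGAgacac
Snord92 in Wdr43, chr17:71631281-71631365, + strand: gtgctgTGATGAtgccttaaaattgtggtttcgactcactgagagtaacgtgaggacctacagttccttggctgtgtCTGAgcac
Snord69 in Gnl3, chr14:31014287-31014366, − strand: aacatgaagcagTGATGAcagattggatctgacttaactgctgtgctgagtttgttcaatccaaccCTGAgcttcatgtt
Snord82 in Ncl, chr1:86356261-86356330, − strand: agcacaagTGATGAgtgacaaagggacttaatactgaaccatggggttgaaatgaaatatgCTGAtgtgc
Both boxes were found in these windows in 9 of the 23 snoRNAs (39.1%), and in 305 of all 1507 annotated snoRNA transcripts (20.2%). Only exact matches were counted. *Snord57* had no box C match and *Snord53* no box D match, so 9 is not a count of box C/D snoRNAs. The 1507 transcripts were of any snoRNA type, not of box C/D alone. The labels name a kit for mRNA libraries. Of the 23 snoRNA genes, 9 were listed at 0 in every library. The highest FPKM in any library was 6.23 for *Snord110*, 0.769 for *Snord11*, 2.26 for *Snord92* and 25.5 for *Snord69*, while *Snord82* was listed at 0 throughout, so the guide RNAs themselves were not compared.

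The promoters of the members were searched for the motif CACGTG, the canonical E-box bound by Myc and its relatives. RefSeq (GRCm38.p6) gave 38 promoters for 34 of the 41 members, each covering 250 bases before and 50 bases after an annotated start. CACGTG, which reads the same on both strands, was present in 7 of the 38 (18.4%), against 10.2% of the promoters of genes tested and 7.15% of all 32851 promoters. The matches are shown in capitals with up to 12 bases on each side, read on the strand of the gene. The position of the first capital is given with the start base counted as 1.
Nop2, chr6:125131811-125131840, + strand, position −60: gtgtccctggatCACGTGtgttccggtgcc
Ltv1, chr10:13193092-13193121, − strand, position 29: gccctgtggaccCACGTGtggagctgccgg
Utp20, chr10:88826765-88826789, − strand, position 38: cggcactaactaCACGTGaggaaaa
Pes1, chr11:3963965-3963994, + strand, position 3: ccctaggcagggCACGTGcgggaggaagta
Mybbp1a, chr11:72441355-72441376, + strand, position 41: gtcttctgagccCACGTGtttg
Tsr1, chr11:74898092-74898121, + strand, position 25: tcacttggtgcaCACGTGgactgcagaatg
Wdr43, chr17:71616220-71616249, + strand, position 18: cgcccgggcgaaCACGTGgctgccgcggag
In 6 of these 7 genes the motif lay after the start, and in *Nop2* it lay before it. The shorter motif ACGTG, the core of the sites that HIF-1α binds, occurred on either strand outside a CACGTG in 7 of the 38 promoters (18.4%), close to the 17.5% of the promoters of genes tested (13.6% of all promoters). Every CACGTG itself contains ACGTG, and those copies were left out of this count. The share of promoters with them included was not counted. A match describes the letters in this window and is not evidence of binding.

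The members spanned a wide range of transcript levels. Their mean FPKM ran from 9.74 for *Utp20* to 1195 for *Npm1*, with a median of 50.6, and every value rested on 645 to 47824 reads. *Npm1*, which encodes the nucleolar chaperone nucleophosmin, and *Ncl*, which encodes nucleolin, supplied 39.9% to 43.0% of the summed FPKM of all members in each library. The gene length behind the deposited FPKM, read back from the values, equalled the mean length of the gene's transcripts in 26 of 41 members, so levels of different genes depend on that choice. When the same reads were divided by the longest transcript, *Npm1* and *Ncl* kept ranks 1 and 2, whereas *Nop58* moved from rank 7 to rank 30.

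In the KO libraries, the transcripts of almost the whole list were slightly lower on average, but no single gene passed the test. The log2 fold change, KO minus WT on log2(FPKM + 1), was below 0 in 40 of 41 members, against 57.9% of all genes tested. Its median over the members was −0.20 (−0.03 over all genes tested), with a range of −0.38 to 0.03. In FPKM, the median difference was −13.3% and the largest was −26.1%, for *Rrp12*. By limma with Benjamini-Hochberg adjustment over all 13312 genes, 0 members had an adjusted p under 0.05, as had 0.0% of all genes tested, and the members' adjusted p ran from 0.626 to 0.88. At an unadjusted p under 0.05, 10 members were lower in KO (4.5% of all genes tested) and 0 were higher (2.48%). The median standard error of the log2 fold change was 0.092, and the 95% interval excluded 0 in 10 members. Because the members vary together across libraries and were listed with earlier results known, the count of 40 is not a count of independent events.

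**Figure D1:**
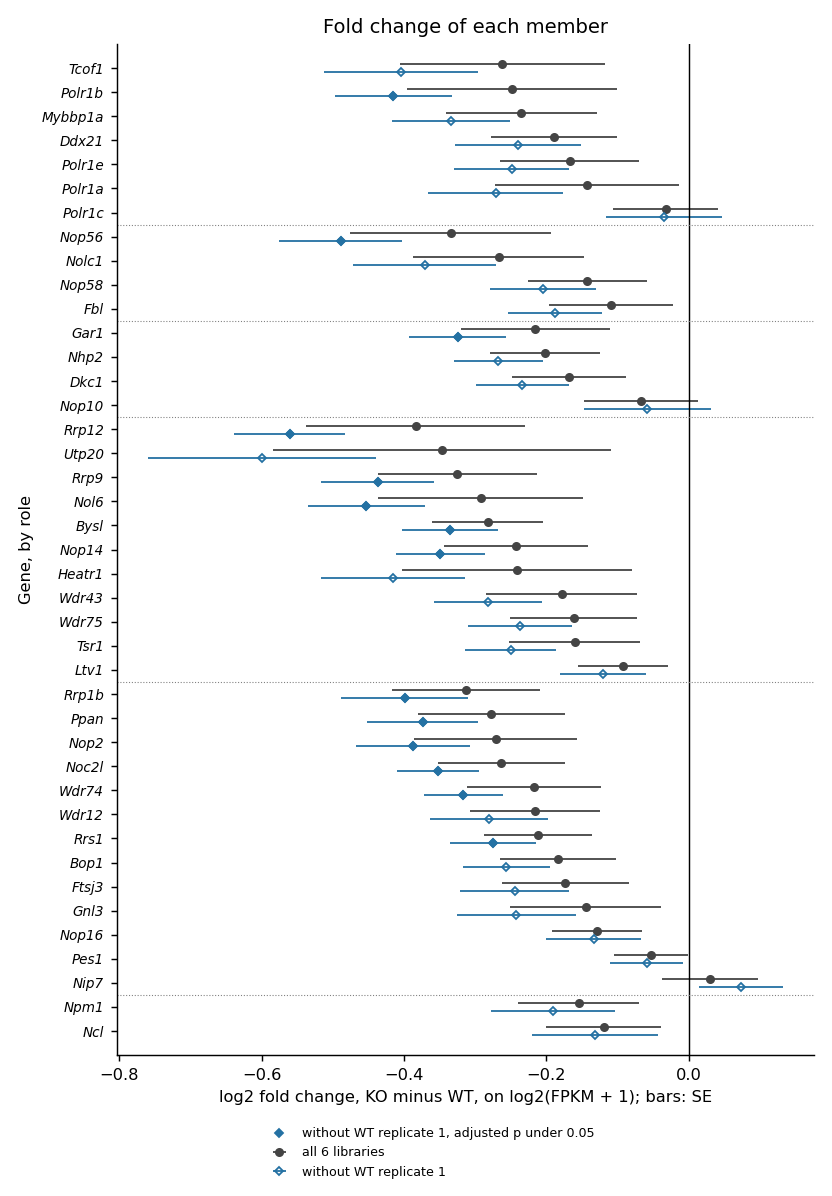
Log2 fold change of each member (horizontal axis, KO minus WT on log2(FPKM + 1)), with genes on the vertical axis grouped by role. Circles are the values from all 6 libraries and diamonds those without WT replicate 1 (filled where the adjusted p was under 0.05), with bars of 1 SE. All circles except that of *Nip7* lie left of 0, and 14 diamonds are filled.

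Much of the spread lay within the WT group. WT replicates 2 and 3 were both above every other library in 36 of 41 members (87.8%), a pattern also present in 30.5% of all genes tested. WT replicate 1 lay within the range of the KO libraries in 29 members, above all of them in 11 and below all of them in 1. In the KO group, replicate 3 was the lowest in 28 members and replicate 1 the highest in 31. Among all 6 libraries, KO replicate 3 was the lowest in 27 members (65.9%), against 24.4% of all genes tested. Averaged over the 41 members, the deviation of log2(FPKM + 1) from each gene's mean was −0.07, 0.18 and 0.19 for the WT libraries in the order of their numbers, and −0.02, −0.11 and −0.17 for the KO libraries. The KO values lay wholly below the WT values in 10 members, against 6.03% of all genes tested, and wholly above them in 0 (4.06%).

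**Figure D2:**
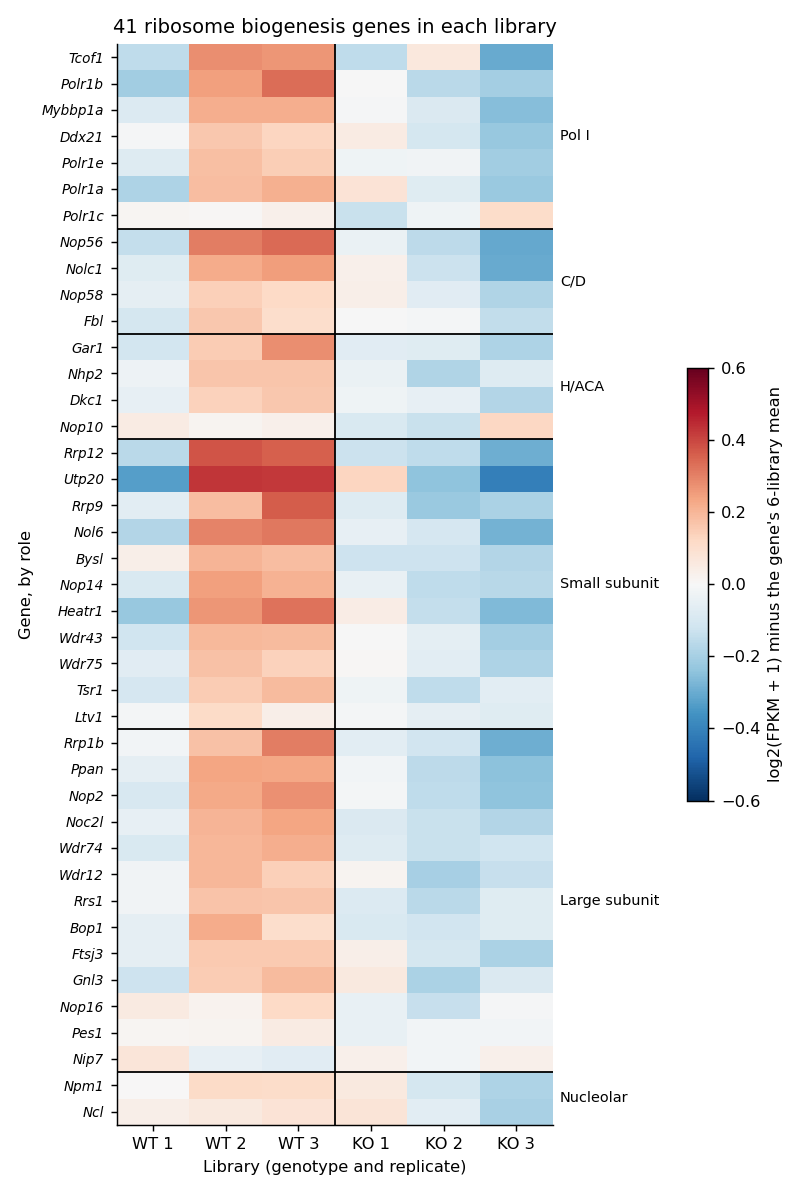
Log2(FPKM + 1) of each member minus the gene's mean over the 6 libraries (color, log2 units), with libraries as columns and genes as rows, sorted by role and by fold change. The columns of WT replicates 2 and 3 are above the mean (red) in most rows, and that of KO replicate 3 is below it (blue). KO replicate 3 is the lowest column in 27 of 41 genes, and the lowest library in 24.4% of all genes tested.

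Each of the 6 libraries was also left out in turn, and the count of members called depended on 1 of them. Without WT replicate 1, 14 members fell in KO cells at an adjusted p under 0.05 (limma with Benjamini-Hochberg adjustment), against 5.75% of all genes tested, and 0 rose (3.64%). These were *Polr1b*, *Nop56*, *Gar1*, *Rrp12*, *Rrp9*, *Nol6*, *Bysl*, *Nop14*, *Rrp1b*, *Ppan*, *Nop2*, *Noc2l*, *Wdr74* and *Rrs1*. The median log2 fold change was then −0.27, and 33 members had an unadjusted p under 0.05 with lower values in KO, as had 18.9% of all genes tested. With any other single library left out, 0 members were called. The library left out for the 14 calls is the one that lay with the KO group on the first principal component. Its label was not checked by any value. Leaving out such a library tends to widen the group difference and narrow the WT spread, so these calls are no separate support.

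Among the 7 genes of ribosomal DNA transcription, all 7 had lower mean values in KO. Their median log2 fold change was −0.19, and 0 had an unadjusted p under 0.05. The most abundant was *Mybbp1a* (chr11:72441355-72451768), which encodes a nucleolar protein that binds RNA polymerase I and Myb. Its FPKM was 161.8, 198.9 and 198.9 in WT and 170.1, 161.0 and 143.0 in KO, values being listed by replicate number here and for the other genes. WT replicates 2 and 3 were the highest and WT replicate 1 fell between the KO values, with a log2 fold change of −0.24 (SE 0.11, adjusted p = 0.626, limma). *Tcof1*, whose product treacle is a cofactor of the polymerase, differed by −0.26, and the catalytic subunits *Polr1b* and *Polr1a* by −0.25 and −0.14. *Polr1e*, a further subunit, differed by −0.17 and the nucleolar RNA helicase *Ddx21* by −0.19. *Polr1c*, a subunit that polymerase I shares with polymerase III, went apart from the others. Its FPKM was 90.7, 90.3 and 92.1 in WT and 81.9, 88.5 and 97.2 in KO, so that the KO libraries lay on both sides of the WT libraries. Its log2 fold change of −0.03 had a 95% interval of −0.21 to 0.14, and its sign turned with median-ratio scaling (0.01) and without KO replicate 1 (0.03).

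The 4 genes of the box C/D snoRNPs were all lower in KO on average, at a median log2 fold change of −0.20. *Nop56* (chr2:130274430-130279313), a core protein of these particles and the host of *Snord110*, had an FPKM of 168.1, 229.7 and 235.1 in WT and 180.7, 166.4 and 150.1 in KO. The WT mean was 211 ± 37.2 and the KO mean 166 ± 15.3 (SD, n = 3 libraries each). WT replicate 1 was lower than KO replicate 1, and the groups therefore overlapped. The difference on the log2 scale was −0.33 (SE 0.14, adjusted p = 0.626, limma). Without WT replicate 1, a setting that called 1251 of all genes tested, it was −0.49 (SE 0.086, adjusted p = 0.0259, limma). *Nolc1*, a chaperone of snoRNPs, differed by −0.27, the paralog *Nop58* by −0.14 and *Fbl*, the methyltransferase fibrillarin, by −0.11. Of these 4, all had WT replicates 2 and 3 above every other library.

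Of the box H/ACA snoRNP genes, *Dkc1* (chrX:75095854-75109777) encodes dyskerin, the pseudouridine synthase of the particle and of telomerase. Its FPKM was 157.8, 179.9 and 182.6 in WT and 160.4, 157.7 and 144.3 in KO, again with WT replicate 1 between the KO libraries. The difference on the log2 scale was −0.17 (SE 0.080, adjusted p = 0.626, limma). The partner proteins *Gar1* and *Nhp2* differed by −0.22 and −0.20, and *Nhp2* was the 1 gene of the group whose KO values (97.5 to 107.5) all lay below its WT values (108.5 to 124.4). *Nop10*, the smallest partner, had an FPKM of 50.6, 49.4 and 49.9 in WT and 45.8, 44.3 and 53.3 in KO. The tight WT values sat inside the KO range, with a log2 fold change of −0.07 (95% interval −0.26 to 0.12).

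The small subunit group held the largest differences. All 11 genes were lower in KO on average, at a median log2 fold change of −0.24, and in all 11 WT replicates 2 and 3 were above every other library. *Rrp12* (chr19:41862851-41896173), an export and processing factor of pre-ribosomes, had an FPKM of 10.4, 15.6 and 15.4 in WT and 10.7, 10.5 and 9.43 in KO. WT replicate 1 lay within the range of the KO libraries. The difference on the log2 scale was −0.38 (SE 0.15, adjusted p = 0.626, limma). Without WT replicate 1, where 1251 of all genes tested were called, it was −0.56 (SE 0.078, adjusted p = 0.0148, limma). *Utp20* (chr10:88746607-88826804), a large scaffold protein of the early pre-ribosome, had an FPKM of 7.29, 13.0 and 13.0 in WT and 10.4, 7.83 and 6.85 in KO. It showed the widest spread of all members, with an SE of 0.24 beside a log2 fold change of −0.35.

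*Rrp9* and *Nol6* were the most abundant of the small subunit genes. *Rrp9* (chr9:106475963-106485424) encodes a protein specific to the U3 snoRNP. Its FPKM was 56.2, 66.9 and 75.9 in WT and 55.6, 50.3 and 51.4 in KO, and the groups did not overlap, although WT replicate 1 and KO replicate 1 lay next to each other. The difference on the log2 scale was −0.33 (SE 0.11, adjusted p = 0.626, limma). For *Nol6* (chr4:41114427-41124455), an RNA-associated protein of the same early particle, the FPKM was 51.8, 72.2 and 73.3 in WT and 56.6, 54.5 and 47.9 in KO. The groups overlapped and the log2 fold change was −0.29 (SE 0.14). *Bysl* (chr17:47599331-47611492), a late assembly factor, had the lowest unadjusted p of the members (0.00849, limma). Its FPKM was 11.0, 12.5 and 12.3 in WT and 9.74, 9.75 and 9.35 in KO, without overlap, with a log2 fold change of −0.28 (SE 0.077, adjusted p = 0.626). Its exons share 361 bases with *Ccnd3* on the opposite strand.

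The remaining small subunit genes had smaller differences. *Nop14* and *Heatr1*, components of the U3 assembly, differed by −0.24 each, and the WD-repeat proteins *Wdr43* and *Wdr75* of the subcomplex that binds the nascent precursor by −0.18 and −0.16. The late maturation factors *Tsr1* and *Ltv1* differed by −0.16 and −0.09. *Ltv1* nevertheless had no overlap between groups in FPKM, with KO values of 27.5 to 28.7 and WT values of 28.8 to 31.5. Its log2 fold change was −0.05 with median-ratio scaling. In *Tsr1*, 32.3% of the exonic bases lie opposite *Srr*, and as the strand of the counting is not stated, its reads cannot be assigned with certainty.

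**Figure D3:**
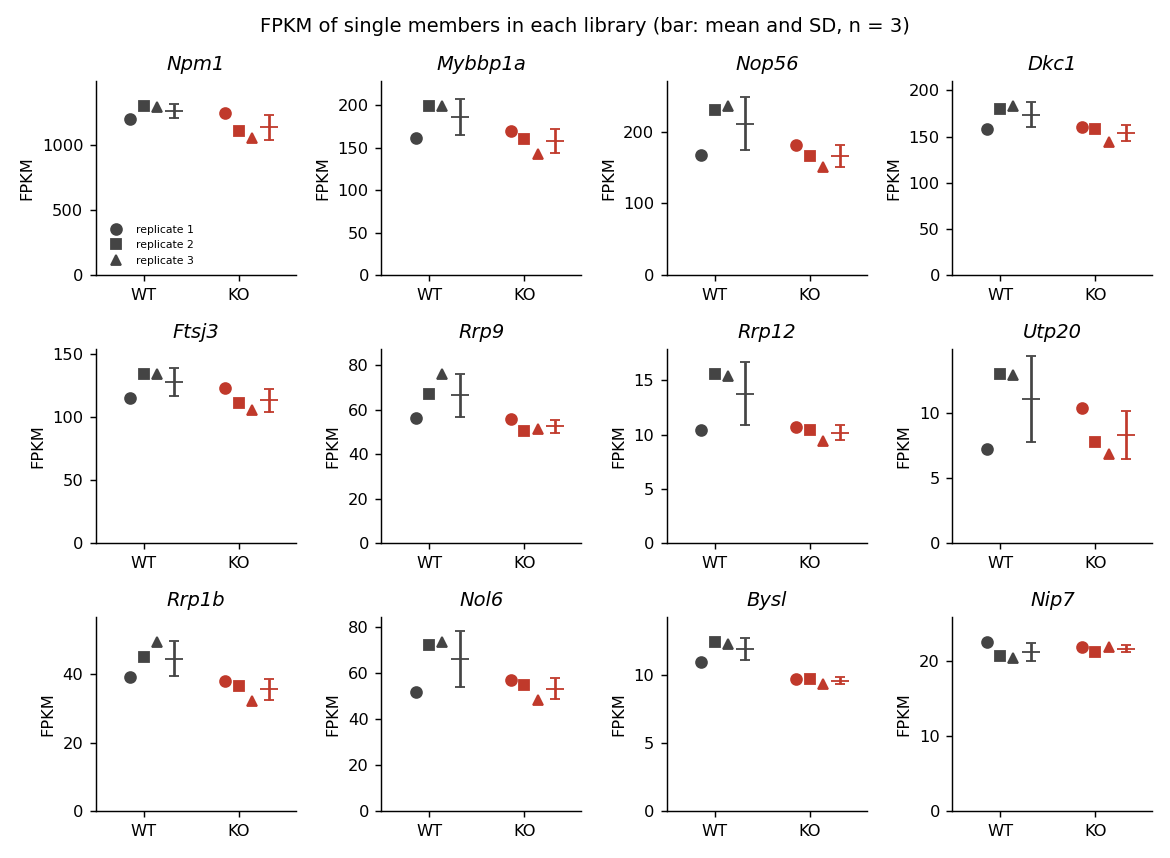
FPKM of 12 members (vertical axes, each from 0) in each WT and KO library, with symbols for the replicate numbers and the mean and SD of the 3 libraries beside them. In most panels WT replicate 1 sits at the height of the KO libraries, whereas *Bysl*, *Rrp9* and *Rrp1b* have no overlap between groups.

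Of the 13 large subunit genes, 12 were lower and 1 was higher in KO, at a median log2 fold change of −0.21, and 5 were lower at an unadjusted p under 0.05 (4.5% of all genes tested). *Ftsj3* (chr11:106249142-106256079), an RNA methyltransferase and the most abundant of the group, had an FPKM of 115.3, 133.8 and 133.8 in WT and 122.7, 111.3 and 105.1 in KO. KO replicate 1 exceeded WT replicate 1, giving a log2 fold change of −0.17 (SE 0.089, adjusted p = 0.626, limma). *Rrp1b* (chr17:32036100-32062865), a nucleolar processing factor, had an FPKM of 39.3, 44.99 and 49.4 in WT and 38.0, 36.6 and 32.2 in KO. These groups did not overlap, with a log2 fold change of −0.31 (SE 0.10, adjusted p = 0.626, limma).

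The 3 subunits of the PeBoW complex, which is needed to process the large subunit RNA, were all lower in KO on average. *Wdr12* differed by −0.22 (SE 0.091), *Bop1* by −0.18 (SE 0.082) and *Pes1* by −0.05 (SE 0.052). *Pes1* (chr11:3963975-3980004) was the steadiest of the members, at 63.9, 64.1 and 65.5 in WT and 61.4, 62.5 and 62.5 in KO. Its small difference was without overlap in FPKM, but was −0.008 on the log2 scale with median-ratio scaling. The groups of *Bop1* did not overlap either (KO 34.3 to 35.3, WT 35.8 to 43.5). Whether the 3 subunits differ from each other was not tested.

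The other large subunit factors were lower in KO with 1 exception. The difference on the log2 scale was −0.28 for *Ppan*, −0.27 for the RNA methyltransferase *Nop2*, −0.26 for *Noc2l*, −0.22 for *Wdr74* and −0.21 for *Rrs1*. *Noc2l* (KO 38.4 to 40.9, WT 42.0 to 51.4) and *Rrs1* (KO 26.5 to 28.3, WT 29.3 to 33.6) did not overlap. In *Noc2l*, 20.9% of the exonic bases lie opposite *Samd11*. The nucleolar GTPase *Gnl3* (nucleostemin) differed by −0.14 and *Nop16* by −0.13. *Nop16* also had no overlap (KO 48.4 to 53.1, WT 54.2 to 58.0). *Nip7* (chr8:107056877-107060931), a small RNA-binding factor, was the exception, with an FPKM of 22.6, 20.7 and 20.4 in WT and 21.9, 21.2 and 21.9 in KO. WT replicates 2 and 3 were here the lowest libraries, and the log2 fold change was 0.03 (95% interval −0.13 to 0.19).

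Both abundant nucleolar proteins had smaller differences than the median member. *Npm1* (chr11:33152287-33163206) had an FPKM of 1194, 1292 and 1287 in WT and 1240, 1107 and 1049 in KO. KO replicate 1 lay above WT replicate 1, giving a log2 fold change of −0.15 (SE 0.085, adjusted p = 0.626, limma). *Ncl* (chr1:86344719-86359400), which binds the ribosomal RNA precursor, stood at 547.0, 555.9 and 564.7 in WT and 562.2, 510.6 and 466.4 in KO, with a log2 fold change of −0.12 (SE 0.081). In both genes KO replicate 1 lay within the WT range and KO replicate 3 was the lowest library.

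Members that hold a snoRNA gene or an E-box can be set beside the rest. The median log2 fold change was −0.16 in the 8 snoRNA hosts and −0.22 in the other members. The 7 members with CACGTG in the promoter window spanned nearly the full range of the list, from −0.35 for *Utp20* through −0.27 for *Nop2* and −0.24 for *Mybbp1a* to −0.05 for *Pes1*.

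A wider set of 129 further ribosome biogenesis genes, all of which were tested, had the same direction with smaller values. Of these, 115 were lower and 14 higher in KO, at a median log2 fold change of −0.14. By limma with Benjamini-Hochberg adjustment 0 were called, and 21 were lower and 0 higher at an unadjusted p under 0.05, against 4.5% and 2.48% of all genes tested. WT replicates 2 and 3 were above every other library in 68.2% of them. The median was −0.16 in 49 large subunit genes, −0.14 in 46 small subunit genes, −0.12 in 13 genes of the RNA exosome, which trims precursor RNA, −0.11 in 10 snoRNP genes and −0.02 in 11 further genes of polymerase I transcription, of which 4 were higher in KO.

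The lowest of these were the large subunit factors *Noc3l* and *Nle1*, both at −0.31, and *Shq1*, an assembly chaperone of dyskerin, at −0.30. *Nle1* had an FPKM of 30.6, 41.3 and 40.4 in WT and 29.2, 29.0 and 31.3 in KO, with WT replicate 1 again inside the KO range. The highest were *Utp3* at 0.14, *Nop53* at 0.13 and *Znrd1*, a small subunit of polymerase I, at 0.09. *Nop53*, which recruits the exosome, ran from 248.7 in WT replicate 3 to 326.1 in KO replicate 3, and in all 3 of these genes WT replicates 2 and 3 were the lowest libraries. Without WT replicate 1, 18 further genes fell (5.75% of all genes tested) and 1, *Utp3*, rose (3.64%), the latter at an adjusted p of 0.049 (limma).

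The genes of the ribosome's own proteins did not share this pattern. Of 83 cytosolic ribosomal protein genes tested, 14 were lower and 69 higher in KO, at a median log2 fold change of 0.06 and 0 called by limma (0 lower and 1 higher at an unadjusted p under 0.05). WT replicates 2 and 3 were above every other library in 3 of them (3.61%). Averaged over these genes, the deviations from each gene's mean were 0.06, −0.10 and −0.04 in WT and 0.03, −0.03 and 0.08 in KO replicates 1, 2 and 3, so that the library in which members were lowest, KO replicate 3, was the one in which ribosomal protein genes were highest. Of 77 mitochondrial ribosomal protein genes, 57 were lower, with a median of −0.06. The difference between these lists and the members was not tested.

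**Figure D4:**
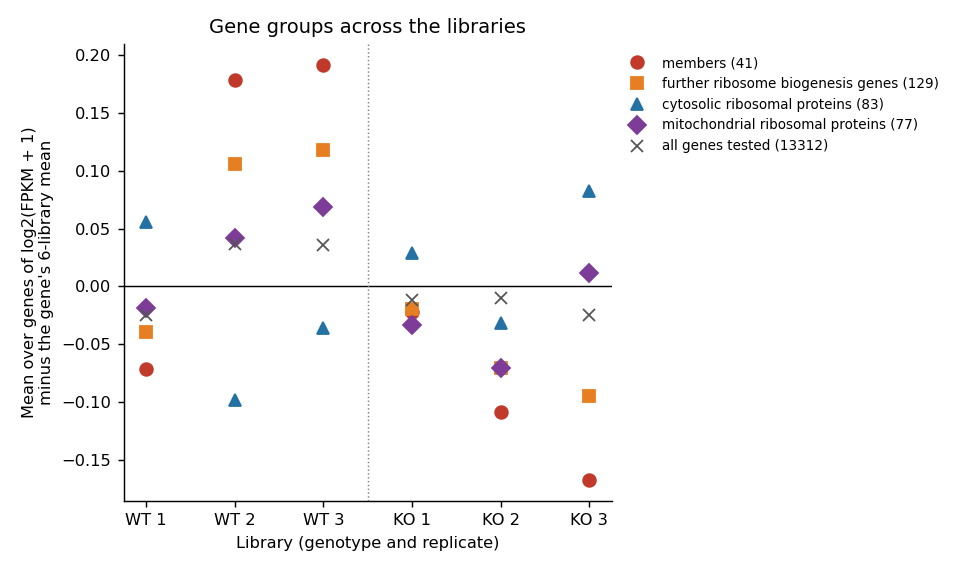
Mean over genes of log2(FPKM + 1) minus the gene's mean over the 6 libraries (vertical axis, log2 units) for the members, 129 further ribosome biogenesis genes, 83 cytosolic and 77 mitochondrial ribosomal protein genes and all 13312 genes tested, in each library (horizontal axis). Members stand at 0.18 and 0.19 in WT replicates 2 and 3, where cytosolic ribosomal protein genes stand at −0.10 and −0.04.

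Other transcripts moved with the members across the libraries. The FPKM of *Myc* was 32.4, 49.2 and 51.7 in WT and 30.8, 30.0 and 35.8 in KO, so that WT replicates 2 and 3 were high and WT replicate 1 lay within the KO range (log2 fold change −0.43, SE 0.18, adjusted p = 0.626, limma). Of 14 proliferation genes, 12 had WT replicates 2 and 3 above every other library, at a median log2 fold change of −0.13, whereas *Mki67*, a marker of dividing cells, was as high in KO replicate 1 (76.1) as in WT replicates 2 and 3 (75.1 and 76.6). Of 12 macrophage and monocyte markers, 10 had their highest values in WT replicates 2 and 3, and their summed FPKM was 303.3 to 430.9 in WT and 286.8 to 323.6 in KO, with *Fcgr1* and *Itgam* below 0.5 in every library. Within this list, *Lyz2* stood at 6.18, 58.2 and 26.2 in WT and 0.60, 2.23 and 3.70 in KO. *C1qa* and *Csf1r* reached at most 2.98 and 0.754 in any library, so other listed genes supplied most of each sum. The 5 erythroid markers summed to 3.05, 15.6 and 12.2 in WT and 2.90 to 4.73 in KO, and the 6 neutrophil markers to 31.4 in WT replicate 1 and at most 0.52 elsewhere. The 7 plasma cell markers ran the other way, with sums of 1407, 938.9 and 892.9 in WT and 1346, 999.4 and 1732 in KO, lowest in WT replicates 2 and 3 and highest in KO replicate 3. The 5 dendritic cell markers summed to 16.2 to 17.9 in WT and 12.04 to 12.95 in KO, without overlap. The part of *Myc*, proliferation and RNA of other cells in the values of the members was not tested. In bulk RNA, fewer cells with active nucleoli and less of these transcripts per cell cannot be told apart.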

How the data were processed

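RNA was measured in 6 libraries of cultured splenic B cells (3 WT, 3 *Hif1a* KO), grouped by the sample labels. The authors used TopHat for aligning paired-end reads to mm10 and HTSeq for counts per gene, and deposited FPKM values, 1 column per library. The annotation release and the strand option are not given in the sources used here, so the 17 members that share exonic bases with a gene on the opposite strand are uncertain. GENCODE vM21 (GRCm38) supplied symbols and coordinates and held 46488 of 46983 gene IDs. Whole reads were recovered from the FPKM of all 25717 genes above 0 (tolerance 0.02 read), giving 25.0 to 37.2 M reads per library, and were used for voom as an alternative. No pair of libraries was identical (0 pairs).

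KO was compared with WT in R 4.3.3 with limma 3.58.1 (lmFit, eBayes with trend) on log2(FPKM + 1), without further scaling or covariates, for genes averaging 0.5 FPKM or more, with Benjamini-Hochberg adjustment over all of them. This scale understates changes of low genes. An exact two-sided permutation test of 3 against 3 libraries cannot go below 0.1 and was not used. In data simulated for 13312 genes with 200 changed, the test recovered 46% of changes of 0.5 and 95.5% of changes of 1 on the log2 scale. Of the calls, 7.07% and 4.98% were false. The noise was drawn independently for each gene, whereas genes vary together in the real libraries, and changed genes averaged 5 FPKM or more. Both changes are larger than that of any member (−0.38 to 0.03), so these shares do not give the power for the members. Tables were made in Python 3.11.15 (numpy 2.4.6, pandas 2.3.3) and figures in matplotlib 3.10.9. The members, role groups and gene lists were chosen with earlier results of these data known.

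All members were to be named. Per-library FPKM was given for the most abundant member of each role, the 6 members with the lowest and the 4 with the highest fold changes (only *Nip7* being above 0), and 3 genes at each end were named from the further genes. *Bysl*, *Bop1*, *Ncl*, *Nhp2*, *Ltv1*, *Noc2l*, *Nop16* and *Rrs1* were described in more detail after their values were seen. The same held for *Mki67*, *Lyz2*, *C1qa* and *Csf1r*. Alternatives were another pseudocount, other filters, median-ratio scaling, quantile normalization, eBayes without trend, voom, the replicate number as a block and leaving out each library. Promoters were read from RefSeq tables (GRCm38.p6), without entries for 7 members. Protein sequences and the single-cell data were not analysed here.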

Additional observations from a re-analysis of the deposited data

How the results depend on the processing

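Over 14 alternatives, 572 of 574 fold changes of members kept their direction, and the median over the members stayed between −0.27 and −0.14 with each library left out in turn and at −0.16 with median-ratio scaling. The exceptions were *Polr1c*, at 0.0125 with median-ratio scaling and 0.0267 without KO replicate 1. The other filters, eBayes without trend and the replicate block leave each fold change as it was by construction. All alternatives reuse the same libraries, so the count of 572 does not measure reproducibility. The median of all genes tested was −0.03 and turned to 0.0107 with median-ratio scaling. No member was called at an adjusted p under 0.05 except without WT replicate 1. With each library left out in turn, 0 to 14 members and 0 to 18 further genes were called lower, and 0 to 1 further genes higher. At an unadjusted p under 0.05, 1 to 33 members and 2 to 72 further genes were lower, and 0 to 2 further genes higher, while 1.16% to 18.9% of all genes tested were lower and 0.646% to 11.0% higher. Members without overlap numbered 10 to 37 lower (24 without KO replicate 1) and 0 to 1 higher (7.53% to 32% and 5.45% to 18.4% of all genes tested), and all genes called 0 to 1251. With median-ratio scaling, 8 members did not overlap and were lower in KO (5.08% of all genes tested). At an unadjusted p under 0.05, 7 members and 14 further genes were then lower (3.58% of all genes tested). With quantile normalization, 8 members did not overlap and were lower (5.27%). Without WT replicate 2 or without WT replicate 3, 1 member was lower at an unadjusted p under 0.05 (1.21% and 1.16% of all genes tested), and without KO replicate 2 or 3 there were 2 (2.72% and 2.4%). The cause of these differences was not tested. With the replicate number as a block, 2 members and 5 further genes were lower at an unadjusted p under 0.05, against 10 and 21 without it, and 3.39% of all genes tested (4.5% without it), and 0 genes were called. Deviations of libraries with the same number correlated at −0.10, 0.14 and −0.28 across genes, so the numbers were not taken to pair the libraries.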
